A study of Mus musculus with 12 samples.

Results

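The expressed long noncoding RNAs of mouse colonic epithelial organoids (colonoids) comprised 261 of the 54532 genes in the table. They were chosen by measured values: a gene annotated as lincRNA, antisense or processed_transcript had to reach at least 2 FPKM in at least 3 of the 12 libraries. FPKM is the number of fragments scaled by gene length in kilobases and by sequencing depth, so levels can be compared between genes. Of 9165 genes with such annotations, 268 reached that level, and genes on the X and Y chromosomes and the Hox-named genes were left out. Among the 261 were 110 lincRNAs (transcripts lying between coding genes), 101 antisense RNAs and 50 processed transcripts.

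Colonoids were grown from colonic crypt stem cells of mice 8 to 12 weeks old on the C57BL/6 background in L-WRN conditioned medium. The 12 libraries fell into 4 groups of 3: Hmox1 fl/fl (control) colonoids given vehicle or 200 µM hemin for 24 hours, and Hmox1 KO/Vil1-Cre (KO) colonoids given vehicle or the same hemin exposure. Both genotypes carry the floxed Hmox1 allele, which encodes heme oxygenase-1, the enzyme that opens the heme ring. In the KO the Vil1 promoter drives Cre recombinase in villus and crypt epithelium. Nothing in the labels ties the 3 libraries of a group to separate animals, so p-values measure the spread between these libraries, and genotype and colonoid line cannot be told apart. The third KO hemin library is entered as Hmox1 fl/fl /Vil1 Cre in its genotype field and was grouped by its title.

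The targeted gene went against the KO label under hemin. Hmox1 stood at 7.62, 6.85 and 7.9 FPKM in control vehicle and 3.14, 2.11 and 2.31 in KO vehicle, but at 503, 483 and 382 in control hemin and 1279, 1392 and 1271 in KO hemin. Every genotype direction below is therefore one between libraries labelled KO and libraries labelled control. Reads outside the deleted part of the gene may still count toward this value, which was not tested. Assigned fragments ranged from 11648801 to 25101868 per library, of which the 261 genes took 0.429% to 0.694%. The colonic epithelial label fitted the markers, with 11 of 13 epithelial genes above 10 FPKM in every library. Of 18 markers of leukocytes, fibroblasts and muscle, endothelium, nerve and glia, 17 stayed under 1 FPKM throughout, with the macrophage gene Cd68 reaching 5.16. Within the epithelium, the goblet cell gene Muc2 averaged 104, 58.5, 72.5 and 6.41 FPKM and the stem cell gene Lgr5 2.45, 0.78, 2.36 and 0.277 in control vehicle, control hemin, KO vehicle and KO hemin, and the part of such shifts in the results below was not tested. In 3 libraries (control vehicle 1, control hemin 1 and KO hemin 2) the noncoding RNA Gm23935, not one of the 261, took 16.8%, 29.0% and 21.0% of the summed FPKM, against 1.18% to 2.81% elsewhere.

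Long noncoding RNAs are transcripts without a long open reading frame, and they act in several ways. Some are architectural RNAs of nuclear bodies, some are mainly carriers whose introns or exons are cut into small nucleolar RNAs (snoRNAs, guides for ribosomal RNA modification) or microRNAs, and some are read from the strand opposite a coding gene or away from its promoter. Poly-A selection, used for these libraries, captures the spliced or polyadenylated host transcript and not the small RNA made from it.

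The microRNA carriers are the members whose product is a known sequence. By coordinates, 11 of the 261 genes held 21 microRNA hairpins with 40 mature arms in RefSeq (GRCm38.p6, the same build as the table). The arms below are those of the hosts that changed with hemin and of the epithelial miR-200 family, shown 5′ to 3′ with the seed (bases 2 to 8, which pair with target messages) in capitals. Mir17hg (chr14:115042879-115046727, plus strand) carries the miR-17-92 cluster, known for driving proliferation, with the seed AAAGUGC shared by miR-17 and miR-20a, and GUGCAAA shared by miR-19a and miR-19b.
mmu-miR-17-5p: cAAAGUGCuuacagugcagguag
mmu-miR-20a-5p: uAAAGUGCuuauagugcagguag
mmu-miR-18a-5p: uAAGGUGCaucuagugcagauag
mmu-miR-19a-3p: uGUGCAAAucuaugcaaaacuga
mmu-miR-19b-3p: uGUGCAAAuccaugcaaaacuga
mmu-miR-92a-3p: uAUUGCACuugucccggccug

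Mir22hg (chr11:75461539-75466676, plus strand) carries miR-22, and AL805899.1 (chr4:88909855-88938521, minus strand) carries miR-31, a microRNA known from regenerating intestinal epithelium.
mmu-miR-22-3p: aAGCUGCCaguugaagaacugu
mmu-miR-31-5p: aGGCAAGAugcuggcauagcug

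The miR-200 family, known to restrain the Zeb repressors in epithelial cells, lies at 2 loci. Gm13648 spans miR-200b, miR-200a and miR-429, and Gm15884 spans miR-141 and miR-200c. The seed AAUACUG is common to miR-200b, miR-200c and miR-429, while miR-200a and miR-141 share AACACUG.
mmu-miR-200b-3p: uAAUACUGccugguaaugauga
mmu-miR-200c-3p: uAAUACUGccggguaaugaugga
mmu-miR-429-3p: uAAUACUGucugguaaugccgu
mmu-miR-200a-3p: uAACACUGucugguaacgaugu
mmu-miR-141-3p: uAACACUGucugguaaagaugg

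These RNAs were mostly scarce. Their mean over the 12 libraries had a median of 2.60 FPKM and ran from 0.867 to 183, against a median of 9.81 for the 9608 coding genes reaching the same level. Only 39 exceeded a mean of 10 FPKM, 24 lay between 5 and 10, 113 between 2 and 5, and 85 under 2. The level was reached in every library by 84 genes. It was reached in all 4 groups by 128 genes, in 3 groups by 42, in 2 by 65 and in 1 by 26, counting a group when at least 1 of its libraries did. At the threshold, the third-highest library of 2810410L24Rik stood at 2.01 FPKM and that of Gm42477 at 2.02, both inside, while 9130221H12Rik stood just outside at 1.999 and Gm43661 at 1.99.

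The 5 most abundant members were Ifi30, Malat1, Gm3054, 2410006H16Rik and Gm26917, and they made up 28.2% of the summed mean FPKM. Ifi30, whose symbol is that of a lysosomal thiol reductase, is annotated in the table as a processed_transcript. A further 7 members (Cct6a, Tmem134, Ptpmt1, Spata5l1, Zswim6, Anxa13 and Trmt61b) likewise carry the symbol of a coding gene, and their values may hold coding message. Ifi30 rose with hemin, from 68, 68.5 and 69.2 to 188, 175 and 144 FPKM in control and from 125, 118 and 119 to 383, 366 and 372 in KO colonoids. Its average log2 difference was 1.45 ± 0.06 (SE, limma adjusted p = 6.94e-09). Gm3054 and 2410006H16Rik did not pass the hemin test (log2 -0.23 and -0.56). Gm26917 measured 218, 54.7 and 76.4 FPKM in the control vehicle libraries, 71, 57 and 27.9 in control hemin, 35.5, 42.5 and 44.4 in KO vehicle and 45.5, 45.9 and 43.1 in KO hemin. The one high library was control vehicle 1, among the 3 rich in Gm23935, and the part that this plays was not tested.

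More members followed hemin than genotype, and most followed neither. A member was called when limma, fitted to log2(FPKM + 1) over 12740 genes, gave an adjusted p under 0.05 and a log2 difference beyond 1. All log2 differences are on this scale, which understates changes of scarce RNAs. On the average of both genotypes 51 of the 261 were called, 16 higher and 35 lower, or 19.5%. Among all tested genes 8.78% were called, 2.75% higher and 6.04% lower, and among the coding genes at the same level 9.73% were, 3.08% higher and 6.65% lower. Genotype, averaged over both treatments, called 18 members, 6 higher and 12 lower in the libraries labelled KO (6.9%, against 5.24% of all genes and 5.77% of coding genes at the same level). The hemin response differed between genotypes for 25 members (9.58%, against 5.13% and 5.2%), with 9 interactions above and 16 below 0. In bulk libraries, fewer cells of a type and less RNA per cell cannot be told apart.

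The level rule itself bears on these shares. A gene that reached 2 FPKM through 1 group had to differ between groups, and of the 26 such members hemin called 38.5%, near the 31.1% of coding genes that reached the level in 1 group. For 2 groups the shares were 30.8% and 26.1%, for 3 groups 11.9% and 22.9%, and for all 4 groups 12.5% and 7.27%. Without a cut on fold, the 6 hemin libraries did not overlap the 6 vehicle libraries for 78 members (29.9%), 29 higher and 49 lower, against 31.9% of all genes. For genotype the libraries separated for 28 members (10.7%), 8 higher and 20 lower, against 10.2% of all genes. By these counts of separation the members stood near the whole table.

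Interaction called 30.8% of the members at the level in 1 group, 12.3% of those in 2, 9.52% in 3 and 3.91% (5 of 128) in all 4, beside 40.9%, 11.1%, 14.9% and 3.19% of coding genes. Genotype called 23.1%, 13.8%, 4.76% and 0.781% (1 of 128) of members, beside 31.5%, 31.8%, 16.6% and 2.66% of coding genes. The rule bears likewise on a gene that reached the level on 1 side of a comparison only, as in hemin but in no vehicle library. For hemin, 64 members were of this kind, of which 46.9% were called, beside 37.3% of coding genes of this kind. Of the other 197 members 10.7% were called, beside 8.02% of the other coding genes. For genotype, 28.6% of 49 such members were called, beside 50.3% of such coding genes, and 1.89% of the other 212, beside 3.4%. For the interaction, 36.7% of 30 such members were called, beside 39.9% of such coding genes, and 6.06% of the other 231, beside 4.21%. Where a member named below is of this kind for a comparison, or reached the level in 1 group only, the values that chose it also enter the difference, which is given as a description with its SE and without a p.

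Within each genotype, hemin called 45 members in control colonoids (17 higher, 28 lower; 8.11% of all genes were called) and 58 in KO colonoids (16 higher, 42 lower; 12.9% of all genes). Libraries labelled KO differed from control for 24 members under vehicle (10 higher, 14 lower; 6.8% of all genes) and for 19 under hemin (4 higher, 15 lower; 6.01% of all genes). Rescaling FPKM to TPM (a set sum per library) shifted the median of all genes by hemin to -0.25 and moved the hemin calls on the average of both genotypes to 13 higher and 67 lower, in control colonoids to 17 and 59, and in KO colonoids to 16 and 77. With Gm23935 left out of that sum, the interaction calls stood at 10 above and 29 below 0. The KO against control calls under vehicle stood at 18 higher and 18 lower after rescaling. In KO colonoids alone, rescaling moved the median of all genes by hemin to -0.31. Calls over all genes were not counted after rescaling, so these counts do not set the members apart.

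Sorted by the average effects, 48 members followed hemin only (16 higher, 32 lower), 15 followed genotype only (5 higher, 10 lower), 3 followed both and 195 neither. Of the 195, 13 had an interaction, which leaves 182 members with no call in any of the 3 tests. A miss of the call does not show that a member was unaffected. These classes were not counted over all genes, so the split describes the members only. The 3 members called for both were Gm44275, Gm2061 and Gm16341, and each was lower with hemin on average.

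**Figure D1:**
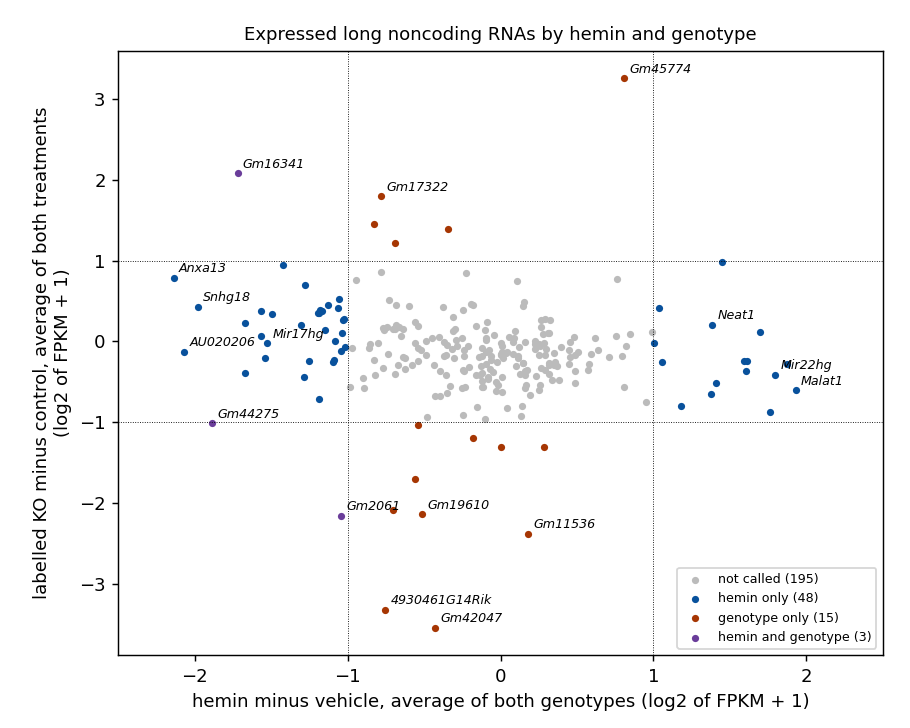
Each point is 1 of the 261 long noncoding RNAs. The x axis gives the hemin minus vehicle log2 difference averaged over genotypes, the y axis the labelled KO minus control log2 difference averaged over treatments (both of FPKM + 1), dotted lines mark a log2 difference of 1, and colours mark the 48 hemin, 15 genotype, 3 shared and 195 uncalled members. Most coloured points lie to the left, Malat1 and Mir22hg lie far right, and Gm42047 and 4930461G14Rik lie lowest.

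Most of the snoRNA host genes among the members lay lower with hemin. Of 21 listed hosts 14 were members, and all 14 had a negative average hemin difference. The call was passed by 6 (Snhg18, Snhg15, Snhg5, Epb41l4aos, Zfas1 and Snhg1), beside 6.04% of all genes called lower. An adjusted p under 0.05 with a lower level was found for 13 (34.4% of all genes), and 10 had every hemin library below every vehicle library (16.8% of all genes). The median log2 difference of the list was -0.91, beside -0.01 over all tested genes. None was called for genotype or interaction, where 5.24% and 5.13% of all genes were. Snhg18 and Snhg4 reached 2 FPKM in vehicle libraries only. Within genotypes, 4 were called lower in control colonoids (5.93% of all genes) and 8 in KO colonoids (8.07% of all genes).

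Snhg18 (chr15:32240565-32244662, minus strand) had the largest difference among them. It measured 6.61, 5.47 and 6.22 FPKM in the control vehicle libraries, 1.42, 1.2 and 1.32 in control hemin, 12.2, 11 and 10.6 in KO vehicle and 1.45, 1.43 and 1.36 in KO hemin. The hemin libraries of both genotypes lay at one low level, and the vehicle libraries labelled KO lay above those of control. The hemin difference was -1.98 ± 0.05 (SE). Its divergent coding neighbour Sema5a, a semaphorin of axon guidance, differed by -0.85 (adjusted p = 9.09e-07) and missed the fold cut.

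Snhg15 measured 8.12, 8.96 and 8.14 FPKM in the control vehicle libraries, 3.48, 4.11 and 2.02 in control hemin, 10.7, 10.4 and 11.8 in KO vehicle and 5.06, 3.13 and 4.77 in KO hemin, a log2 difference of -1.19 ± 0.13 (SE, limma adjusted p = 1.27e-05). Snhg5 measured 16, 16.1 and 15.2 FPKM in the control vehicle libraries, 5.02, 6.65 and 8.81 in control hemin, 19, 17.1 and 17.4 in KO vehicle and 7.87, 7.15 and 7.05 in KO hemin, with a difference of -1.15 ± 0.10 (SE, limma adjusted p = 1.54e-06). Neither gene's vehicle libraries overlapped its hemin libraries. Zfas1, read from the strand opposite Znfx1, measured 10.9, 12.1 and 13.7 FPKM in the control vehicle libraries, 7.12, 8.03 and 4.65 in control hemin, 16, 15.1 and 15.5 in KO vehicle and 5.9, 5.8 and 6.07 in KO hemin (log2 -1.04), while Znfx1 lay higher with hemin by 0.62 (adjusted p = 8.53e-07) and missed the fold cut. Epb41l4aos measured 34.1, 37.7 and 35.4 FPKM in the control vehicle libraries, 30.4, 26.5 and 10.7 in control hemin, 42.1, 39.6 and 39.1 in KO vehicle and 12.9, 14.8 and 19 in KO hemin (log2 -1.05). In both, control hemin 3 was the lowest library of its group, and without it their differences were -0.94 and -0.83, short of the fold cut, so that 4 hosts were then called.

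The other 8 hosts were not called. Snhg17, Snhg4 and Snhg12 came nearest (log2 -0.97, -0.86 and -0.76), and Snhg8, Dancr, Gas5 and Snhg20 followed (-0.60, -0.54, -0.49 and -0.37). Gas5, named for its rise in growth-arrested cells, measured 22.8, 18.7 and 19.9 FPKM in the control vehicle libraries, 17.8, 15.9 and 19.3 in control hemin, 25.9, 24.1 and 25.7 in KO vehicle and 15.8, 15 and 12.3 in KO hemin. Snhg6 alone on the list also missed the adjusted p, with a difference of -0.12 ± 0.13 (SE, limma adjusted p = 0.443). It measured 22.4, 13.9 and 13.9 FPKM in the control vehicle libraries, 17.5, 14.2 and 23.2 in control hemin, 17.7, 16.3 and 17.6 in KO vehicle and 13.4, 14 and 12 in KO hemin. A direct search of the table found 20 members that contain a snoRNA gene. The 6 outside the list held no lower call, and 1 of them, Gm11775, was called higher.

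**Figure D2:**
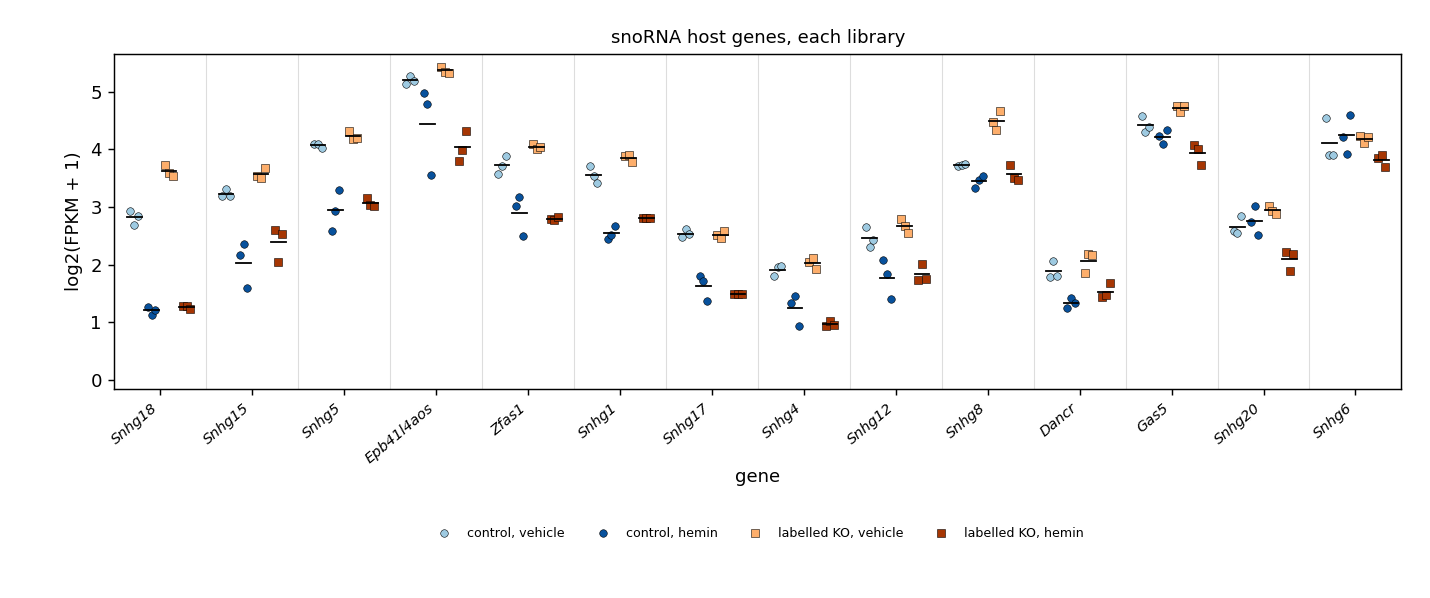
The 14 snoRNA host genes among the members, ordered by average hemin difference, with log2(FPKM + 1) on the y axis, 1 point per library and a bar at each group's mean. From Snhg18 to Snhg12, and in Dancr, the hemin points lie below all vehicle points, whereas those of Snhg6 mix.

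Messages of the translation machinery, and several snoRNA hosts, are known to begin with a C followed by pyrimidines. In RefSeq promoter windows a C and 3 pyrimidines at the annotated start occurred in 3.76% of 32851 single promoters, in 17 of the 141 members with a window at 1 or more of their starts (12.1%), and in 2 of 11 listed snoRNA hosts, Snhg8 and, at 1 of its 2 starts, Gas5. Outside the list, 2410006H16Rik, Rab26os and 1 of the 2 starts of 1110038B12Rik, which hold a snoRNA, had it too. None of these 5 was called lower with hemin. Shown are 10 bases before and 20 from the start of Snhg8, of both starts of Gas5, and of Snhg1 and Snhg5, both called lower, with the first 4 transcribed bases in capitals (GRCm38.p6, each on its own strand).
Gas5, chr1:161035156-161035185, plus strand: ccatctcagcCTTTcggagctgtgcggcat
Gas5, other start, chr1:161034591-161034620, plus strand: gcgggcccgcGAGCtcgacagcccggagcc
Snhg8, chr3:123508317-123508346, minus strand: gttcagaagtCTCTttggctgcgatccgcc
Snhg1, chr19:8723477-8723506, plus strand: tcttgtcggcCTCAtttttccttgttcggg
Snhg5, chr9:88522878-88522907, minus strand: gcggtgaaccGGGCtcgttcttttacgacg

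Snhg1 and the coding gene beside it were both called, in opposite directions. Snhg1 measured 12, 10.6 and 9.66 FPKM in the control vehicle libraries, 4.46, 4.73 and 5.39 in control hemin, 13.7, 14 and 12.7 in KO vehicle and 6.01, 6.04 and 6.01 in KO hemin, a hemin difference of -1.02 ± 0.06 (SE, limma adjusted p = 6.94e-08). Slc3a2, the heavy chain shared by the cystine/glutamate antiporter and neutral amino acid exchangers, starts on the opposite strand and measured 33.7, 37.4 and 37.8 FPKM in the control vehicle libraries, 58.2, 56.4 and 40.5 in control hemin, 24.3, 23.7 and 25.4 in KO vehicle and 179, 160 and 177 in KO hemin. Its hemin difference was 1.62 (adjusted p = 3.24e-08) on average, made of 0.48 (adjusted p = 0.00611) in control, which missed the fold cut, and 2.76 (adjusted p = 1.43e-08) in the libraries labelled KO, an interaction of 2.28 (adjusted p = 6.14e-06). Snhg1 differed by -1.01 and -1.04 in the same order. Vehicle and hemin libraries separated for both genes, Snhg1 downward and Slc3a2 upward. The Snhg1 difference was -0.99 without control vehicle 1 and -0.96 with the 3 libraries rich in Gm23935 left out, each just short of the fold cut, which it also missed without control hemin 1.

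The window that separates the starts of these genes is shown on the plus strand, from 250 bases before the RefSeq start of Snhg1 to 50 after it, with the 119 bases from the annotated start of Slc3a2 to that of Snhg1 in capitals. Its base composition is 56.7% G and C.
Snhg1 and Slc3a2 (chr19:8723237-8723536, plus strand, GRCm38.p6): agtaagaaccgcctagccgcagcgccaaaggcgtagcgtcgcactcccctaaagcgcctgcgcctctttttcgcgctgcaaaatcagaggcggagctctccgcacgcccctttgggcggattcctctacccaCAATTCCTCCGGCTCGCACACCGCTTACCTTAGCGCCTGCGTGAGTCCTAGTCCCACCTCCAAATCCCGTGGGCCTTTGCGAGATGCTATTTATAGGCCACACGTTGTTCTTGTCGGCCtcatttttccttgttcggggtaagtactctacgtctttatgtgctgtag

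No match to any of 3 stress-factor motifs was found there. The motifs, searched on both strands, were TGACNNNGC (antioxidant response element, bound by Nrf2), TGAGTCA (AP-1) and TGATGNAA (bound by C/EBP and ATF4). The first occurred in 24 of the 141 members with a window, where a member counts once for any of its windows, and in 12.4% of all 32851 single windows. The second occurred in 8 and 5.2%, and the third in 4 and 3.97%. A member with more than 1 window has more chances of a match, so these shares are not on the same footing. Of the 9 members higher with hemin that had a window, 1 held the first motif and none the others, and of the 20 lower members 4, 2 and 1 did. A core match of the first motif can overlap the second. A match is a description and no match says only that these letters are missing from this window.

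Malat1 and Neat1, which are found in bodies of the nucleus, rose with hemin. Of 12 listed abundant nuclear RNAs 3 were members, and these 2 were called higher (2.75% of all genes) while 2900097C17Rik was not. Malat1 (chr19:5795690-5802672, minus strand), the RNA of nuclear speckles where splicing factors gather, measured 97.4, 50.3 and 50.2 FPKM in the control vehicle libraries, 381, 109 and 338 in control hemin, 44.9, 37.4 and 40.5 in KO vehicle and 119, 331 and 101 in KO hemin. Every hemin library lay above every vehicle library, but the hemin libraries spread from 101 to 381. The difference was 1.93 ± 0.37 (SE, limma adjusted p = 0.000763). Control vehicle 1, control hemin 1 and KO hemin 2, the libraries rich in Gm23935, were each the highest of their group, and without them the difference was 1.66 (adjusted p = 0.00194).

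Neat1 (chr19:5824708-5845478, minus strand), the scaffold of paraspeckles, bodies that assemble under stress, measured 16.9, 19.5 and 19.6 FPKM in the control vehicle libraries, 52, 50.5 and 38.4 in control hemin, 21.2, 18.6 and 20.2 in KO vehicle and 68.4, 46 and 62.3 in KO hemin. Every hemin library again lay above every vehicle library, with a difference of 1.39 ± 0.11 (SE, limma adjusted p = 6.4e-07), and 1.40 without the 3 libraries rich in Gm23935. In contrast, 2900097C17Rik stayed between 32.8 and 42.5 FPKM in all 12 libraries (0.06 ± 0.05 SE, limma adjusted p = 0.327). Interaction of the hemin response with genotype was 0.01 for Malat1 and 0.22 for Neat1, and neither was called.

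MicroRNA hosts moved both ways. Mir22hg measured 16.1, 18.1 and 17.3 FPKM in the control vehicle libraries, 45.9, 46.9 and 46.5 in control hemin, 8.58, 9.08 and 10.2 in KO vehicle and 48.1, 43.2 and 47.5 in KO hemin, so hemin brought both genotypes to about the same level from different starting points. The average difference was 1.79 ± 0.05 (SE, limma adjusted p = 4.26e-10), and the interaction, 0.81 ± 0.10 (SE, limma adjusted p = 0.000214), passed the adjusted p but not the fold cut. Its same-strand neighbour Tlcd2 overlaps it and rose as well, by 1.74 (adjusted p = 9.82e-09), and reads over both genes cannot be told apart.

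Mir17hg, the host of the first 6 sequences above, measured 6.88, 5.92 and 5.29 FPKM in the control vehicle libraries, 1.09, 1.53 and 1.45 in control hemin, 6.26, 5.19 and 5.56 in KO vehicle and 1.49, 1.37 and 1.32 in KO hemin. It lay lower with hemin by about the same amount in each genotype, with an average of -1.53 ± 0.07 (SE) and no interaction called (log2 0.10). AL805899.1, the miR-31 locus, was not on a fixed list and was singled out after its values were seen. It measured 1, 0.807 and 0.937 FPKM in the control vehicle libraries, 5.89, 3.97 and 4.25 in control hemin, 0.732, 0.373 and 0.382 in KO vehicle and 2.94, 2.23 and 2.56 in KO hemin, a difference of 1.41 ± 0.10 (SE). These are levels of host transcripts, and the mature microRNAs were not measured.

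The miR-200 hosts, also chosen after their values were seen, were not called. Gm13648 measured 14.2, 13.8 and 14.6 FPKM in the control vehicle libraries, 10.6, 10.5 and 10 in control hemin, 13.7, 11 and 14.5 in KO vehicle and 7.19, 8.33 and 7.9 in KO hemin, with every hemin library below every vehicle library and a difference of -0.54 ± 0.06 (SE, limma adjusted p = 1.98e-05). Gm15884 overlapped between treatments (0.23 ± 0.14 SE, limma adjusted p = 0.18). Of all 11 members holding a hairpin, 2 were called higher with hemin, 1 lower and none for genotype, where 2.75%, 6.04% and 5.24% of all genes were.

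**Figure D3:**
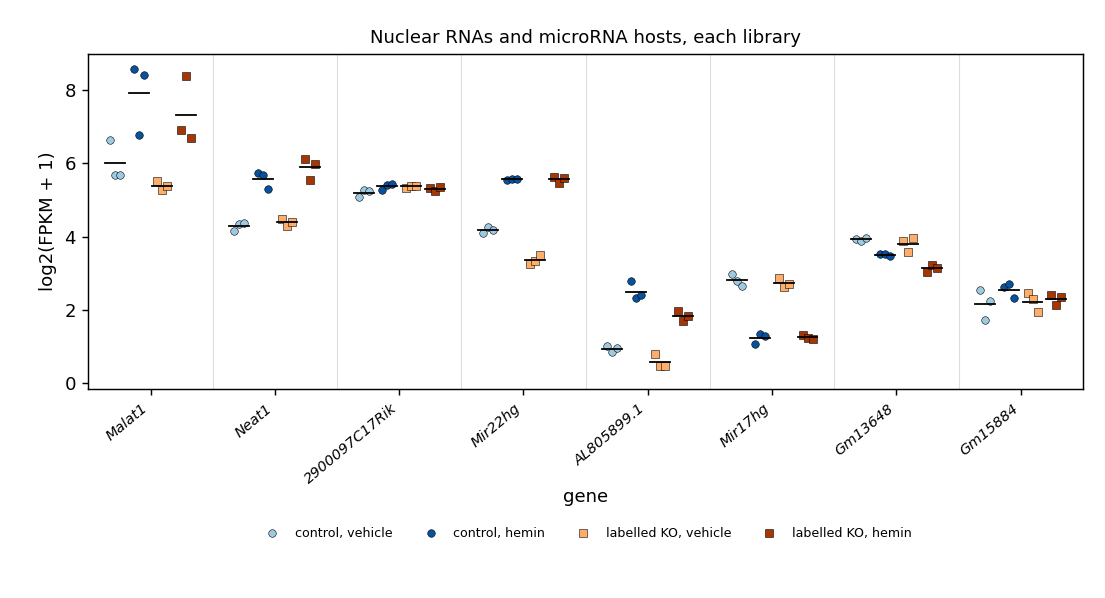
Nuclear RNAs and microRNA hosts, with log2(FPKM + 1) on the y axis, 1 point per library and a bar at each group's mean. Hemin points lie above vehicle points for Malat1, Neat1, Mir22hg and AL805899.1 and below them for Mir17hg and Gm13648, while 2900097C17Rik and Gm15884 overlap.

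The remaining fixed lists held few members. Of 14 stress and p53 linked RNAs 6 were members, with 2 called higher by hemin and 2 lower (2.75% and 6.04% of all genes), all of them on the other lists. Tug1 was not called (-0.25 ± 0.09 SE, limma adjusted p = 0.0321). Of 20 epithelial or gut linked RNAs only Foxd2os and Bvht were members, and both lay lower with hemin without passing the fold cut (log2 -0.85 and -0.64). No list member was called for genotype or interaction, where 5.24% and 5.13% of all genes were.

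Among the other hemin-responsive RNAs, the largest increases after Malat1 were those of Gm14963, Mir22hg, Gm11775 and Gm20632. Gm14963 (chr19:6268795-6276605, minus strand), divergent from the endocytic recycling gene Ehd1, measured 0.308, 0.32 and 0.171 FPKM in the control vehicle libraries, 4.83, 3.01 and 3.95 in control hemin, 0.0478, 0.0452 and 0.186 in KO vehicle and 2.69, 3.29 and 2.51 in KO hemin. No vehicle library exceeded 0.32 FPKM in either genotype. The gene differed by 1.88 ± 0.10 (SE), whereas Ehd1 differed by 0.80 (adjusted p = 7.18e-06). Gm20632 (chr3:96239393-96241819, plus strand), opposite the histone gene Hist2h2aa2, measured 0.575, 1.45 and 0.899 FPKM in the control vehicle libraries, 4.88, 4.88 and 4.48 in control hemin, 0.983, 0.81 and 1 in KO vehicle and 6.04, 5.43 and 6.09 in KO hemin (1.70 ± 0.09 SE). For both genes all hemin libraries lay above all vehicle libraries.

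Among genes whose hemin and vehicle libraries did not overlap, the largest decreases were those of Anxa13, AU020206, Snhg18, Gm44275 and Gm17025. Gm16341, whose libraries overlapped, differed by -1.72. AU020206 (chr7:75769038-75782099, minus strand) measured 10.2, 10.5 and 9.86 FPKM in the control vehicle libraries, 1.48, 2.31 and 2.52 in control hemin, 11, 10.7 and 10.7 in KO vehicle and 1.31, 1.44 and 1.57 in KO hemin, a difference of -2.07 ± 0.08 (SE, limma adjusted p = 3.41e-09) on average. Gm17025 (chr15:81415560-81419188, minus strand), opposite Xpnpep3, measured 3.55, 2.82 and 3.89 FPKM in the control vehicle libraries, 0.151, 0.583 and 0 in control hemin, 2.64, 4.79 and 3.48 in KO vehicle and 0.479, 0.66 and 0.721 in KO hemin (-1.67 ± 0.14 SE). Anxa13, whose symbol is that of an annexin of intestinal epithelium, measured 1.8, 1.65 and 1.67 FPKM in the control vehicle libraries, 0.13, 0.188 and 0.127 in control hemin, 7.71, 8.11 and 7.36 in KO vehicle and 0.0515, 0.0315 and 0.103 in KO hemin. None of the 6 hemin libraries exceeded 0.188 FPKM, and the difference was -2.14 ± 0.05 (SE).

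Fewer RNAs followed genotype, and several were nearly absent from the libraries of 1 genotype. Gm45774 (chr8:94170748-94173412, minus strand), antisense to the metallothionein gene Mt2, was close to 0 in control libraries and clearly present in those labelled KO. It had 0 or 1 fragment in each of the 6 control libraries. The values were 0, 0.022 and 0 FPKM in the control vehicle libraries, 0.0329, 0.0317 and 0 in control hemin, 5.33, 4.62 and 3.79 in KO vehicle and 17.8, 12.7 and 17.5 in KO hemin. The genotype difference was 3.25 ± 0.09 (SE), a fitted value that depends on the pseudocount, and the hemin difference was 1.60 in the libraries labelled KO and 0.02 in control (interaction 1.58 ± 0.18 SE, limma adjusted p = 0.00013). Under limma-voom on whole fragments that interaction was 0.83 (adjusted p = 0.715). Mt2 itself, of whose 905 bases 749 lie under Gm45774, averaged 0.607, 0.192, 1.28 and 0.868 FPKM in the same order of groups and was not called. How reads over both genes were assigned is not given in the sources used here, and without the strand setting antisense and coding reads cannot be told apart.

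Gm42047 (chr8:121833247-121841178, plus strand) had the largest genotype decrease. It measured 15.5, 14.5 and 14.9 FPKM in the control vehicle libraries, 8.32, 7.88 and 9.02 in control hemin, 0.0867, 0.0512 and 0.126 in KO vehicle and 0.0369, 0.0301 and 0 in KO hemin, with a difference of -3.54 ± 0.05 (SE). From 526 to 1448 fragments stood behind each control library and from 0 to 12 behind each library labelled KO. Next came 4930461G14Rik (chr9:58455122-58469635, plus strand), with 28.5, 25 and 27.5 FPKM in the control vehicle libraries, 13.4, 9.93 and 15.2 in control hemin, 1.74, 0.824 and 1.48 in KO vehicle and 0.659, 0.454 and 0.909 in KO hemin and a difference of -3.32 ± 0.12 (SE). Control and labelled KO libraries did not overlap for either gene.

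A further 3 RNAs were higher in the libraries labelled KO. Gm17322, on the strand of Cyp11a1, measured 0.28, 0.405 and 0.335 FPKM in the control vehicle libraries, 0.162, 0.312 and 0.0789 in control hemin, 6.46, 6.16 and 5.56 in KO vehicle and 1.41, 1.76 and 1.96 in KO hemin (genotype 1.80 ± 0.07 SE). For 9230105E05Rik, opposite the chromatin gene Hmga2, the values were 0.323, 0.546 and 0.485 FPKM in the control vehicle libraries, 0.39, 0.301 and 0.457 in control hemin, 5.95, 5.07 and 6.12 in KO vehicle and 0.957, 1.28 and 1.52 in KO hemin (genotype 1.45 ± 0.08 SE). Both lay lower with hemin in the libraries labelled KO, and in control they were low with and without it. Gm12320 (chr11:70748705-70755151, minus strand) measured 0, 0 and 0 FPKM in the control vehicle libraries, 0, 0.286 and 0 in control hemin, 3.21, 2.2 and 2.51 in KO vehicle and 0.823, 1.51 and 0.943 in KO hemin. Under vehicle it was at least 16.3-fold higher in the libraries labelled KO, taking 3 fragments per control library as the floor.

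**Figure D4:**
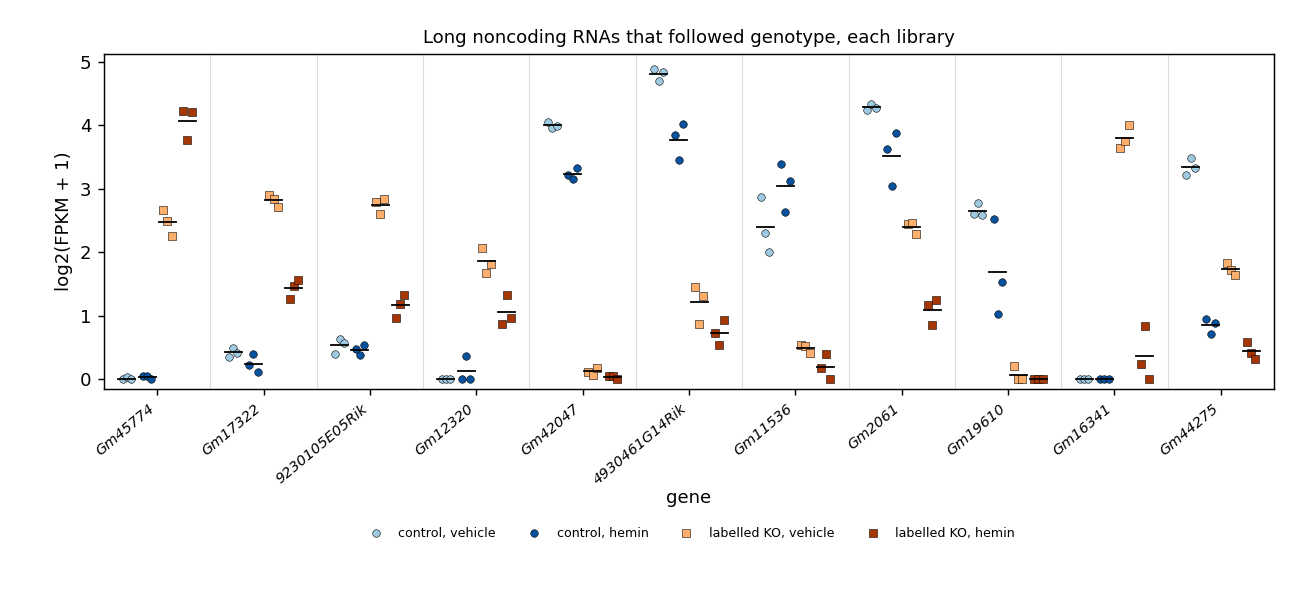
Long noncoding RNAs that followed genotype, with log2(FPKM + 1) on the y axis, 1 point per library and a bar at each group's mean. Square labelled KO points lie above round control points for the first 4 genes and below them for the next 5, Gm16341 is near 0 outside the labelled KO vehicle libraries, and Gm44275 is lower in both hemin groups.

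Several genotype-dependent RNAs lay against a coding gene that moved the same way. Of the 261 members, 116 overlapped a coding gene on the other strand, 11 on the same strand, 34 started within 2000 bases of a coding gene read the other way, and 100 did neither. In 156 member and coding gene pairs with both tested (147 members), genotype called 12 member entries and 11 coding entries, beside 5.24% of all genes. In 6 pairs it called both, each in the same direction. Hemin called 19 member entries and 15 coding entries, beside 8.78% of all genes. It called both genes of 4 pairs, 3 in the same direction and Snhg1 with Slc3a2 in opposite ones. These counts carry no test, and partners share reads where they overlap.

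Gm19610, opposite the growth factor gene Ereg, measured 5.05, 5.88 and 4.99 FPKM in the control vehicle libraries, 4.73, 1.04 and 1.89 in control hemin, 0.15, 0 and 0 in KO vehicle and 0, 0 and 0 in KO hemin (genotype -2.14 ± 0.20 SE), and Ereg differed by -3.97 (adjusted p = 3.7e-11), with vehicle means of 19.7 FPKM in control and 0.0488 in KO. Under hemin Gm19610 was at least 5.73-fold lower in the libraries labelled KO, by the same floor. Gm11536, opposite Hoxb3, measured 6.35, 3.94 and 2.99 FPKM in the control vehicle libraries, 9.5, 5.22 and 7.68 in control hemin, 0.457, 0.433 and 0.333 in KO vehicle and 0.13, 0.318 and 0 in KO hemin, and its partner, a homeobox gene of body patterning, averaged 2.63, 5.15, 0.298 and 0.0985 FPKM in the same order of groups. Differences by genotype were -2.38 ± 0.16 (SE) for the RNA and -1.95 (adjusted p = 1.87e-06) for Hoxb3. Neither gene's control libraries overlapped those labelled KO.

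Gm2061, opposite the manganese exporter gene Slc30a10, followed both genotype and hemin. It measured 18, 19.1 and 18.3 FPKM in the control vehicle libraries, 11.3, 7.26 and 13.7 in control hemin, 4.45, 4.53 and 3.89 in KO vehicle and 1.26, 0.8 and 1.36 in KO hemin, with a genotype difference of -2.15 ± 0.13 (SE, limma adjusted p = 1.49e-07) and a hemin difference of -1.04 ± 0.13 (SE, limma adjusted p = 2.64e-05). The hemin difference was -0.92 without control hemin 2 and -0.98 without KO hemin 2, short of the fold cut. Slc30a10 averaged 26.7, 20.9, 10.1 and 4.68 FPKM in the 4 groups in the same order.

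The other 3 genotype pairs were Gm36640 with Pbp2, Gm15347 with the phospholipid flippase gene Atp11a, and 2610318M16Rik with Oit1. Gm36640 differed by -1.70 ± 0.07 (SE) and Pbp2 by -1.19 (adjusted p = 9.52e-05). Gm15347 differed by -1.31 ± 0.22 (SE, limma adjusted p = 0.000574) and Atp11a by -1.86 (adjusted p = 3.05e-10). Mcf2l, which Gm15347 also overlaps, lay the other way, by 0.66 (adjusted p = 2.44e-07) on average, short of the fold cut, and by 1.32 (adjusted p = 2.35e-08) under vehicle, where Gm15347 differed by -1.99. In the one pair that was higher in the libraries labelled KO, 2610318M16Rik differed by 1.22 ± 0.14 (SE) and Oit1 by 1.92 (adjusted p = 1.83e-11).

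A further 2 pairs were called lower together with hemin, besides Mir22hg and Tlcd2, which were called higher. Rap1gapos measured 1.03, 1.24 and 0.772 FPKM in the control vehicle libraries, 0, 0 and 0.545 in control hemin, 2.47, 2.58 and 2.27 in KO vehicle and 0.147, 0.18 and 0.148 in KO hemin (hemin -1.18 ± 0.11 SE), and Rap1gap, which switches off the GTPase Rap1, averaged 9.6 FPKM in control vehicle and 1.15 in control hemin. Gm15947, opposite the serine protease gene Prss32, differed by -1.03 ± 0.07 (SE), and Prss32 by -1.09 (adjusted p = 6.88e-06). Without KO hemin 2 the Gm15947 difference was -0.98, short of the fold cut.

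The hemin response of 25 RNAs differed between genotypes. In 14 of them the fitted response was of opposite sign in the 2 genotypes, 8 above 0 in control and below 0 in the libraries labelled KO and 6 the reverse, in 10 the signs matched, and Gm16341 had no response in control. Only 13 of the 25 had a called hemin change within at least 1 genotype.

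The largest fitted interaction was that of Gm16341 (chr1:86275509-86301375, minus strand), antisense to Armc9, which had no fragment in any of the 6 control libraries. It measured 11.5, 12.4 and 15.1 FPKM in KO vehicle and 0.184, 0.789 and 0 in KO hemin. Under vehicle it was at least 25.6-fold higher in the libraries labelled KO than the floor of 3 fragments per control library. Its interaction was -3.44 ± 0.25 (SE), and 1 KO hemin library was at 0. The level was reached in KO vehicle alone, so this value describes the group that chose the gene. Gm44275 (chr6:135312155-135319561, minus strand), called for hemin, genotype and interaction, measured 8.26, 10.2 and 8.98 FPKM in the control vehicle libraries, 0.94, 0.638 and 0.85 in control hemin, 2.57, 2.3 and 2.12 in KO vehicle and 0.496, 0.337 and 0.249 in KO hemin. Its genotype difference, -1.01 ± 0.07 (SE, limma adjusted p = 9.37e-07), sat at the fold cut and fell short of it when any 1 of 5 libraries was left out (reaching -0.97). Its interaction, 1.19 ± 0.15 (SE, limma adjusted p = 0.0002), was 0.92 (adjusted p = 0.0402) with a pseudocount of 0.1 and 0.78 (adjusted p = 0.164) with limma-voom, neither of them called.

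Gm11775, antisense to the lymphocyte gene Cd7 and holding a snoRNA, was higher with hemin mainly in control colonoids. It measured 0.627, 0.53 and 1.41 FPKM in the control vehicle libraries, 9.98, 7.77 and 14.5 in control hemin, 0.791, 1.05 and 0.692 in KO vehicle and 2.34, 1.7 and 3.25 in KO hemin, a hemin difference of 2.65 ± 0.24 (SE) in control and 0.88 ± 0.24 (SE) in the libraries labelled KO. Gm33103 (chr8:68971145-69001683, minus strand) measured 4.26, 3.44 and 4 FPKM in the control vehicle libraries, 0.665, 0.963 and 1.46 in control hemin, 0.232, 0.329 and 0.225 in KO vehicle and 0.791, 1.37 and 1.45 in KO hemin. It lay lower with hemin in control (-1.29 ± 0.16 SE), while in the libraries labelled KO the response was 0.79 ± 0.16 (SE). Gm20457, antisense to Mtmr10, measured 0.978, 2.06 and 0.96 FPKM in the control vehicle libraries, 2.44, 2.73 and 2.26 in control hemin, 3.95, 4.92 and 2.61 in KO vehicle and 0.713, 1.37 and 1.02 in KO hemin, and its hemin difference was 0.61 in control, short of the call, and -1.23 ± 0.21 (SE) in the libraries labelled KO.

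Gm16144, antisense to the annexin gene Anxa2, measured 2.64, 2.41 and 2.2 FPKM in the control vehicle libraries, 1.8, 1.94 and 1.55 in control hemin, 0.814, 0.42 and 0.503 in KO vehicle and 1.93, 2.21 and 2.11 in KO hemin. Its interaction was 1.28 ± 0.15 (SE), and Anxa2 had one in the same direction, 1.21 (adjusted p = 1.61e-05). Of the 2 pairs with both interactions called, the other went in opposite directions, with 1.36 ± 0.43 (SE, limma adjusted p = 0.044) for Gm15347 and -1.33 (adjusted p = 1.83e-06) for Mcf2l. The Gm15347 interaction lost its call in 13 of 20 other settings (adjusted p from 0.0252 to 0.102 over all 20). Its lowest log2 difference over these settings was 1.03, so the calls were lost on the adjusted p. Gm44686, antisense to the chromatin remodeller gene Chd2, measured 3.37, 3.03 and 1.35 FPKM in the control vehicle libraries, 1.14, 0.94 and 1.43 in control hemin, 1.47, 1.5 and 1.1 in KO vehicle and 2.06, 3.62 and 2.19 in KO hemin. Its interaction was 1.28 ± 0.32 (SE). Without the 3 libraries rich in Gm23935 that interaction was 0.92, short of both the fold cut and the adjusted p.

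**Figure D5:**
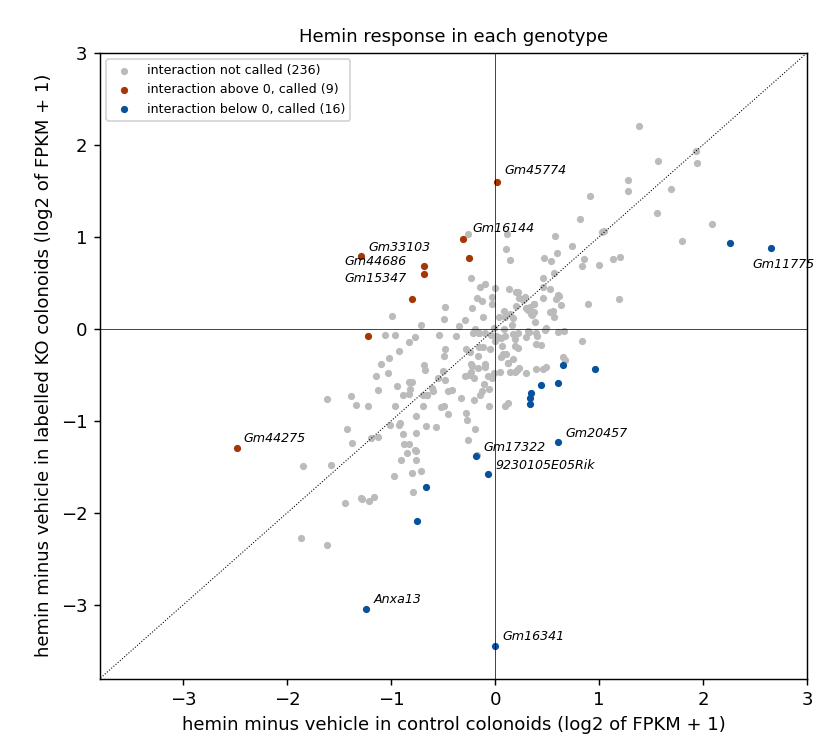
Each point is 1 of the 261 long noncoding RNAs, placed by its hemin minus vehicle log2 difference (of FPKM + 1) in control colonoids on the x axis and in labelled KO colonoids on the y axis, with equal responses on the dotted line. The 9 members with a called interaction above 0 lie above the line and the 16 below 0 lie under it, with Gm16341 lowest and Gm11775 farthest right.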

How the data were processed

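RNA was extracted with a column kit, poly-A selected and sequenced from 12 colonoid libraries. The authors deposited FPKM per gene, made from raw reads with fastp, HISAT2 2.0.5 and featureCounts 1.5.0-p3 on mm10, per the submitters' processing notes. The notes name both directional and non-directional kits, so the strand setting is not given in the sources used here. FPKM times gene length, divided by its smallest value above 0 in the library, lay within 0.01 of a whole number for 100% of values above 0, and fragments were recovered in this way (11648801 to 25101868 per library). Here limma 3.58.1 (R 4.3.3, moderated test with an intensity trend, Benjamini-Hochberg adjustment) was fitted to log2(FPKM + 1) of the 12740 genes with at least 1 FPKM in at least 3 libraries, over all 4 groups. A log2 difference is on that scale and understates changes of low genes. All 261 members passed this filter. A call needs an adjusted p under 0.05 and a log2 difference beyond 1. No deposited column of another kind was left over (0 columns).

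Named genes were Hmox1, the 5 members of highest mean FPKM, members of the fixed lists, the 5 largest called increases and decreases per main test (for averages, with 6 against 6 libraries not overlapping), pairs with both genes called, and members whose interaction was called among these. Members and lists were chosen with earlier results of these data known. Lists covered snoRNA hosts, microRNA hosts, abundant nuclear, stress and p53 linked, and epithelial or gut linked RNAs. Partners are coding genes that overlap or start within 2000 bases on the opposite strand. Sequences are from RefSeq (GRCm38.p6), and 141 members matched a promoter window by symbol and position. Scripts were tested on simulated data. Alternatives covered pseudocount, filters, scaling, fold cut, member rule, intensity trend, groups in the fit, limma-voom, a replicate block and each library left out.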

Additional observations from a re-analysis of the deposited data

Results flagged for a closer look

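The response to hemin differed between genotypes, by the interaction term of the limma fit, in 12 of the long noncoding RNAs named above. The log2 difference of responses (libraries labelled KO minus control) was above 0 for Gm33103 (2.08), Gm45774 (1.58), Gm15347 (1.36), Gm44686 (1.28), Gm16144 (1.28) and Gm44275 (1.19). It was below 0 for Gm17322 (-1.20), 9230105E05Rik (-1.51), Gm11775 (-1.78), Anxa13 (-1.80), Gm20457 (-1.84) and Gm16341 (-3.44). Gm33103, Gm17322, 9230105E05Rik, Anxa13, Gm16341, Gm44686 and Gm16144 reached 2 FPKM on 1 side of this contrast only, so their values are descriptions. For the other 5 the adjusted p ran from 0.00013 for Gm45774 to 0.044 for Gm15347. With a pseudocount of 0.1 and with limma-voom, the value for Gm17322 was -1.07 and -0.86, and neither was called, which held for Gm44275 too. Gm45774 and Gm16341 had at most 1 fragment in any control library, so their interaction is set by the libraries labelled KO and by the pseudocount.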

How the results depend on the processing

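The counts of called members moved with the scale and the cuts, and none of the 48 called results of named members reversed direction. For the hemin average (51), the genotype average (18), hemin in control (45) and in KO colonoids (58), KO against control under vehicle (24) and under hemin (19), in that order, the calls were 79, 32, 73, 88, 41 and 42 with a pseudocount of 0.1, and 85, 38, 74, 92, 45 and 42 with limma-voom on recovered fragments. With a mean of at least 5 FPKM they were 19, 5, 15, 21, 7 and 7 of the 63 members left. By adjusted p alone they were 159, 117, 131, 145, 85 and 92. Rescaling to TPM gave 80, 31, 76, 93 and 33 (all but the vehicle comparison), and 79, 29, 73, 89 and 34 with Gm23935 left out of the sum. With members taken by a mean of at least 2 FPKM (176 genes) they were 32, 11, 28, 14 and 12 (all but hemin in KO colonoids). The interaction calls (25) were 1 at a mean of at least 5 FPKM, 39 with Gm23935 left out of the TPM sum and 64 by adjusted p alone. The snoRNA host calls (6) were 13 by adjusted p alone, and all hosts kept a negative difference in each refit. Calls over all genes were not counted in the refits, and the cause of these shifts was not tested.

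Leaving out 1 library at a time gave 44 to 53, 16 to 20, 44 to 47, 54 to 59, 24 to 26 and 19 to 27 calls in the same order, 19 to 31 interactions and 4 to 6 snoRNA hosts. The 3 libraries rich in Gm23935 were left out together after the data were seen, with 50 hemin, 20 genotype and 32 interaction calls. Of 48 calls of named genes, 37 held in every refit, and 942 of 977 values kept their call. Many of these genes were named for large called differences in the same libraries, so kept calls and directions were likely beforehand. Deviations of same-numbered libraries had a mean correlation of -0.04 (from -0.33 to 0.18), beside 0.02 (from -0.39 to 0.34) for other numbers. With 3 libraries per group this cannot exclude a pairing. A replicate block gave 51 hemin, 18 genotype and 22 interaction calls, and among named calls it changed that of Gm15347 (adjusted p = 0.0762). With 5000 bases for divergent starts, 39 members were divergent and 95 separate. The 3 libraries per group and a median of 2.60 FPKM limit the size of change that could be called.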
